A study of Mus musculus with 4 samples.

Results

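Colipase and the pancreatic-type digestive enzymes are a set of 9 genes taken by symbol: Clps, Pnliprp1, Pnliprp2, Pnlip, Cel, Cela1, Cpa1, Cpb1 and Ctrb1. The platform annotation paired 8 of them with probe sets, out of 18193 genes in all, and no probe set naming Pnlip was found there, so Pnlip was not analysed here. The 8 measured genes had 10 probe sets, 2 each for Clps and Pnliprp2 and 1 each for the others. Where a gene had 2, the probe set with the higher mean over the arrays is called the first.

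The samples were labelled as Paneth cells, which sit at the bottom of small intestinal crypts and secrete antimicrobial granules. They were captured by laser from sections of the small intestine of male NMRI mice aged 8 weeks. Markers of other cell types were also above array background, as given below. The germ-free group had no microbes up to the time of sampling. The conventionalized group carried a gut microbiota acquired 10 days earlier. In each group, RNA of 3 mice was pooled and 2 aliquots of 10 ng were amplified, giving 2 arrays per group and 4 in all. The arrays of a group are repeat amplifications of 1 pool, so p-values measure amplification and array error and not the spread between mice. No genotype or other treatment was named for either group.

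Dietary fat and protein are broken down in the gut lumen mainly by enzymes that pancreatic acinar cells secrete as zymogens or active lipases. Colipase is a small protein that anchors pancreatic lipase to fat droplets coated with bile salts, and it has no lipase activity of its own. The lipase-related proteins share the fold of pancreatic lipase but differ in substrate. The intestine is known to express a few of these genes itself, outside the pancreas.

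For a view of the gene neighbourhood, Pnlip, Pnliprp1 and Pnliprp2 lie next to each other on mouse chromosome 19, with non-coding genes between Pnlip and Pnliprp1 and no other annotated gene between Pnliprp1 and Pnliprp2. The RefSeq promoter table (GRCm38.p6) held 8 of the 9 genes, Clps being the one without an entry. Shown here are the 250 bases before the annotated start of Pnliprp2, the one member above array background whose window was in the table, of its neighbour Pnliprp1, which was at background, and of Cela1, which lay between. Capitals mark matches, on either strand, to 4 short motifs. The motifs were a TATA box (TATAAA), an E-box (CACCTG) and a TC-box (TTTCCC), the last pair being the parts of the site of the acinar factor PTF1, and a GATA motif (GATAAG). No capitals overlap between motifs here. The Pnliprp2 window lies at chr19:58759473-58759722 (strand +), that of Pnliprp1 at chr19:58728637-58728886 (strand +) and that of Cela1 at chr15:100687921-100688170 (strand -).
Pnliprp2: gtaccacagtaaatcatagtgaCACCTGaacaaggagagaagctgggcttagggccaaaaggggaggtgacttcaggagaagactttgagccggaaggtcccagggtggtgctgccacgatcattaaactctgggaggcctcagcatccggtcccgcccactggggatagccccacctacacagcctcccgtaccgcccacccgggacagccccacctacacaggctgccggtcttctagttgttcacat
Pnliprp1: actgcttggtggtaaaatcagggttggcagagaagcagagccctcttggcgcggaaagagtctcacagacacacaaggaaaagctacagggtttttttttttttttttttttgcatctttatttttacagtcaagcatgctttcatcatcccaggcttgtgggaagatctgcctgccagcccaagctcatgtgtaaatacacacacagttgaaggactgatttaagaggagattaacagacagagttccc
Cela1: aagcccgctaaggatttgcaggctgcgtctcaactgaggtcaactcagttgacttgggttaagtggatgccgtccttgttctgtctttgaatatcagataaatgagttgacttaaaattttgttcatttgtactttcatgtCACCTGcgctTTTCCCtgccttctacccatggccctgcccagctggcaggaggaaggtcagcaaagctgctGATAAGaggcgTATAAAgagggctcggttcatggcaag

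The Cela1 window held all 4 motifs, with the E-box and the TC-box starting 109 and 99 bases before the start. Pnliprp2 held 1 E-box, 228 bases before the start, and Pnliprp1 held none of the 4. Over the 8 genes with a window, the E-box was found in 4, the TC-box in 4, the GATA motif in 3 and the TATA box in 2. Over all 32851 windows of the table, the E-box was found in 17.2%, the TC-box in 21.9%, the TATA box in 12.4% and the GATA motif in 6.55%. A match is a run of letters and is not a measured site.

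Only Clps and Pnliprp2 among the 8 measured genes were well above the background of the arrays. Background was taken on each array as the 95th percentile of 78 probe sets for olfactory and vomeronasal receptors, genes assumed here to be largely silent. Whether any of these receptors was expressed in the captured cells was not tested. The background stood at 315 and 158 on the germ-free and 173 and 371 on the conventionalized arrays. Of all 18193 genes, 25.7% were above it on all 4 arrays at their first probe set and 42.1% on none. Of the 8, Clps and Pnliprp2 were above it on all 4, Cela1 on 2, and Pnliprp1, Cel, Cpa1, Cpb1 and Ctrb1 on none. With the 99th percentile as background, Clps and Pnliprp2 were above it on all 4 arrays and Cela1 on none. Signals are probe set intensities on a linear scale, as the authors scaled them. The brightness of a probe set also depends on its sequence, so levels of different genes are not ranked here.

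**Figure D1:**
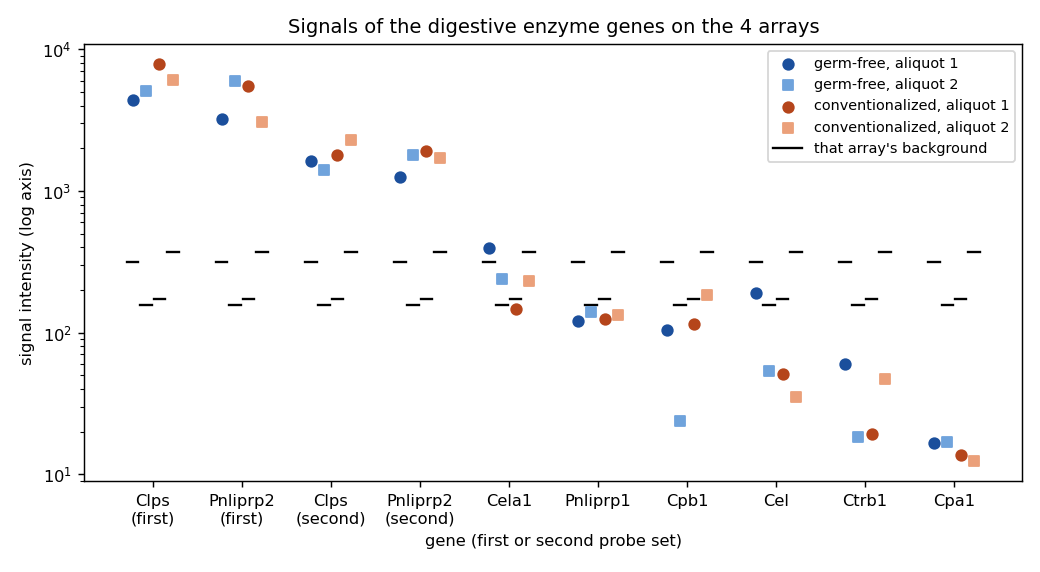
Signal intensity (log axis) of each probe set on the 4 arrays, 1 point per array, with short black lines for the background of the same array. Both probe sets of Clps and of Pnliprp2 lie above the background of all 4 arrays, Cela1 crosses the background, and the other 5 genes lie below it.

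Clps (gene identifier 109791) read 4387 and 5079 in germ-free against 7903 and 6124 in conventionalized cells at its first probe set. Both conventionalized arrays were higher than both germ-free arrays. The second probe set read 1620 and 1406 in germ-free against 1799 and 2290 in conventionalized cells, again without overlap. The group means at the first probe set were 4733 ± 490 and 7014 ± 1258 (SD, 2 arrays per group). On the log2(signal + 32) scale on which the test was run, the first probe set differed by 0.56 ± 0.50 (SE), or 1.47-fold, and the second by 0.42 ± 0.42, or 1.34-fold. Neither passed (limma adjusted p = 0.999 for both). The 95% interval of the first difference ran from -0.41 to 1.53, or from 0.75-fold to 2.88-fold. The duplicates of the first probe set lay 0.21 and 0.37 apart on the log2 scale. The SE comes from probe sets of like signal, not from Clps itself.

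Pnliprp2 (gene identifier 18947) encodes a lipase known to act on galactolipids and phospholipids as well as on triglycerides. Its first probe set read 3198 and 6003 in germ-free against 5476 and 3051 in conventionalized cells. The groups overlapped fully, with 1 high and 1 low array in each. The second probe set read 1257 and 1802 in germ-free against 1930 and 1713 in conventionalized cells, also with overlap. The log2 difference was -0.10 ± 0.46 (SE, 2 arrays per group) at the first and 0.27 ± 0.42 at the second, and neither passed (limma adjusted p = 0.999 for both). The 2 probe sets thus lay on opposite sides of 0, and the interval of the first, from -1.01 to 0.81, runs from 0.50-fold to 1.75-fold. The sign of the first also turned on which array was kept. Leaving out germ-free replicate 2 gave 0.35 and leaving out conventionalized replicate 2 gave 0.32. Leaving out replicate 1 gave -0.55 for the germ-free and -0.52 for the conventionalized pool. The suffix _x_at of the first probe set marks probes that can bind related transcripts, so its signal may hold more than Pnliprp2.

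Pnliprp1 (gene identifier 18946), a lipase-related protein known to have little lipase activity, read 121 and 139 in germ-free against 124 and 133 in conventionalized cells. All 4 values were close together and below the background of their own arrays. The log2 difference of -0.01 ± 0.88 had an interval from -1.74 to 1.71, so the test says little about it at this signal.

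Cel (gene identifier 12613) encodes the bile salt-dependent lipase, which also cleaves cholesteryl esters. Its signals were 189 and 53.1 in germ-free against 50.9 and 34.8 in conventionalized cells, all below background. Germ-free replicate 1 stood apart from the other 3 arrays. The log2 difference of -0.88 was not tested, because the mean of Cel lay under the signal of 113.9 that a probe set had to pass to enter the test, and it was -0.19 without germ-free replicate 1.

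Among the proteases, Cela1 (gene identifier 109901), an elastase of the chymotrypsin family, was the only one above background on any array. It read 397 and 239 in germ-free against 147 and 232 in conventionalized cells. Both germ-free arrays exceeded their background and both conventionalized arrays fell below theirs, although the backgrounds differ and germ-free replicate 2 (239) and conventionalized replicate 2 (232) nearly coincide. The log2 difference was -0.65 ± 0.58 (SE, 2 arrays per group), or 1.57-fold lower in conventionalized cells, and did not pass (limma adjusted p = 0.999). Its interval ran from -1.78 to 0.48.

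The other proteases were at background. Ctrb1 (gene identifier 66473), chymotrypsinogen B, read 59.6 and 18.2 in germ-free against 19.3 and 47.0 in conventionalized cells. Cpa1 (gene identifier 109697), a carboxypeptidase that removes aromatic and aliphatic residues from peptide ends, read 16.5 and 17.0 against 13.7 and 12.3. Cpb1 (gene identifier 76703), the carboxypeptidase for basic residues, read 104.7 and 23.8 against 115.5 and 184.6. None of these 12 values reached the background of its array, and none of the 3 genes entered the test. The Cpb1 groups did not overlap, yet the log2 difference of 1.03 was smaller than the gap of 1.29 between its germ-free duplicates. Cpa1 also had groups that did not overlap, with a log2 difference of -0.12 whose size is set by the pseudocount (-0.24 with 8 in place of 32, and -0.04 with the highest one tried).

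**Figure D2:**
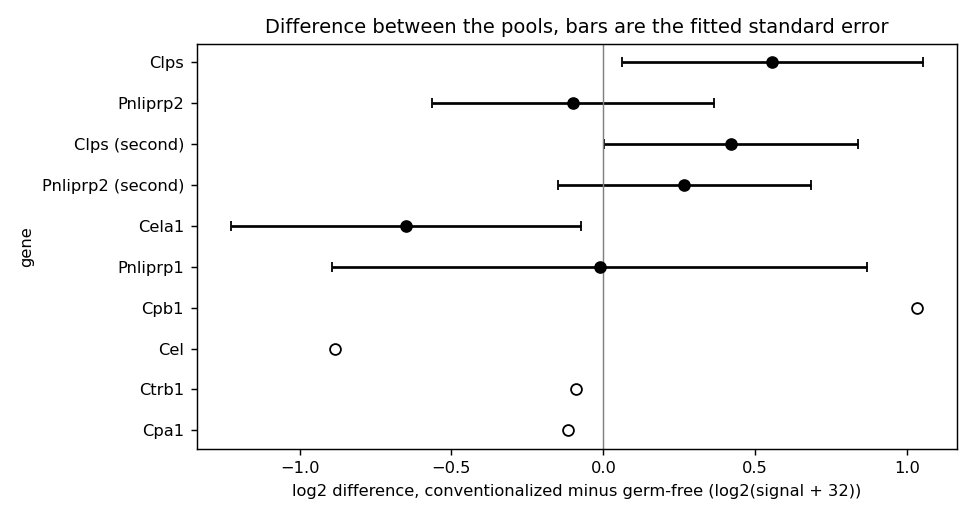
Log2 difference between the pools for each probe set, conventionalized minus germ-free, with the fitted standard error for the 6 probe sets that were tested (filled) and none for the 4 that were not (open). Clps lies at 0.56 and 0.42, Pnliprp2 at -0.10 and 0.27, and Cela1 at -0.65.

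The pools were compared to ask how colonization alters expression in Paneth cells. Of this set, 4 of the 8 genes entered the test (6 of 10 probe sets) and limma called 0 of the 4 at an adjusted p under 0.05. At an unadjusted p under 0.05 the count was also 0. Over all probe sets tested, 0.333% were called, and over genes at their first probe set 0.355%, so 0 of 4 is a count near that background. Among the 8 genes, Clps and Cpb1 had both conventionalized arrays above both germ-free arrays, Cel, Cela1 and Cpa1 had both below, and Pnliprp1, Pnliprp2 and Ctrb1 overlapped. Over all genes the groups did not overlap for 31.6%, with 16.2% higher and 15.4% lower. With 2 arrays per group, an exact permutation test could not go below p = 0.333.

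**Figure D3:**
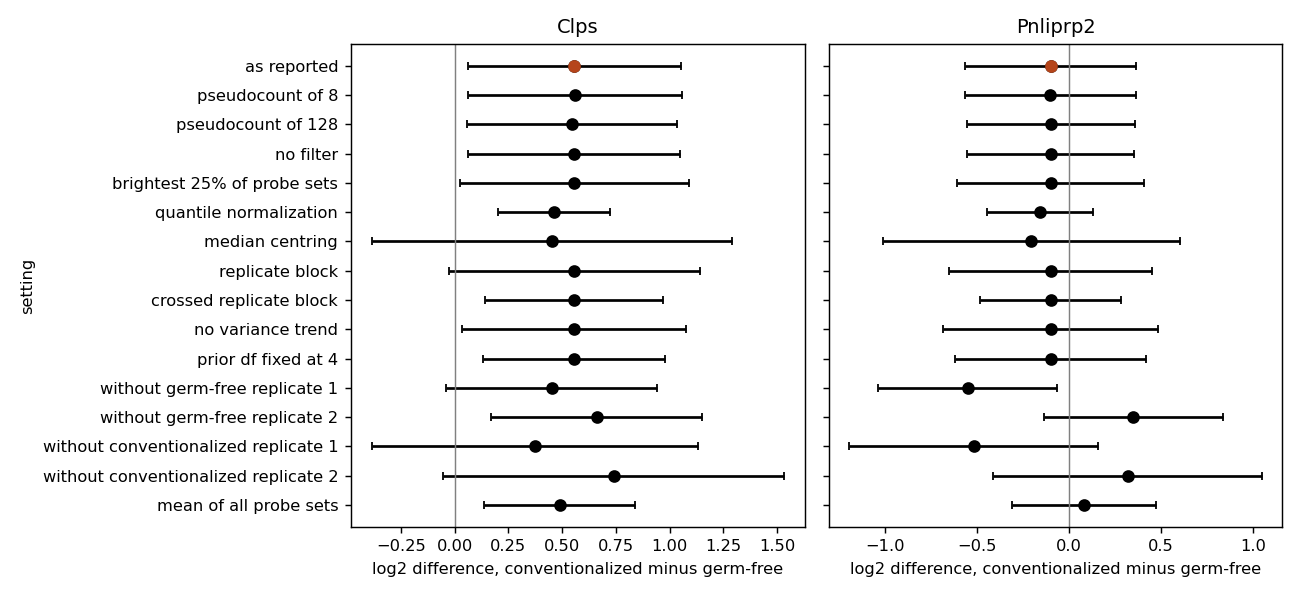
Log2 difference of Clps (left) and Pnliprp2 (right), conventionalized minus germ-free, with standard error, as reported (orange) and under each of the 15 alternative settings. Clps stays above 0 throughout, from 0.37 to 0.74, while Pnliprp2 lies on both sides of 0, from -0.55 to 0.35.

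The rest of the exocrine pancreas programme was read from a fixed list of 17 acinar genes, none of them among the 9, of which 10 had a probe set. Of those 10, 0 were above background on all 4 arrays, 3 on some and 7 on none. The 3 were Sycn, a zymogen granule protein, above background on 3 arrays, and Cela3b, an elastase, and Ctrl, a chymotrypsin-like protease, each above it on 1. Sycn read 307 and 217 in germ-free against 257 and 392 in conventionalized cells. Cela3b read 277 and 126 against 260 and 327. Prss2, a trypsinogen and the third brightest of the 10, read 183 and 73.8 against 17.2 and 321, below background on each array. Ptf1a, the transcription factor that defines acinar cells, and its partner Rbpjl were also below it on each array, both named after their values were seen. Ptf1a read 216 and 15.3 against 106 and 149, and Rbpjl 17.2 and 4.8 against 15.3 and 86.1. The summed signal of the 10 genes ran from 793 to 2076 per array.

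**Figure D4:**
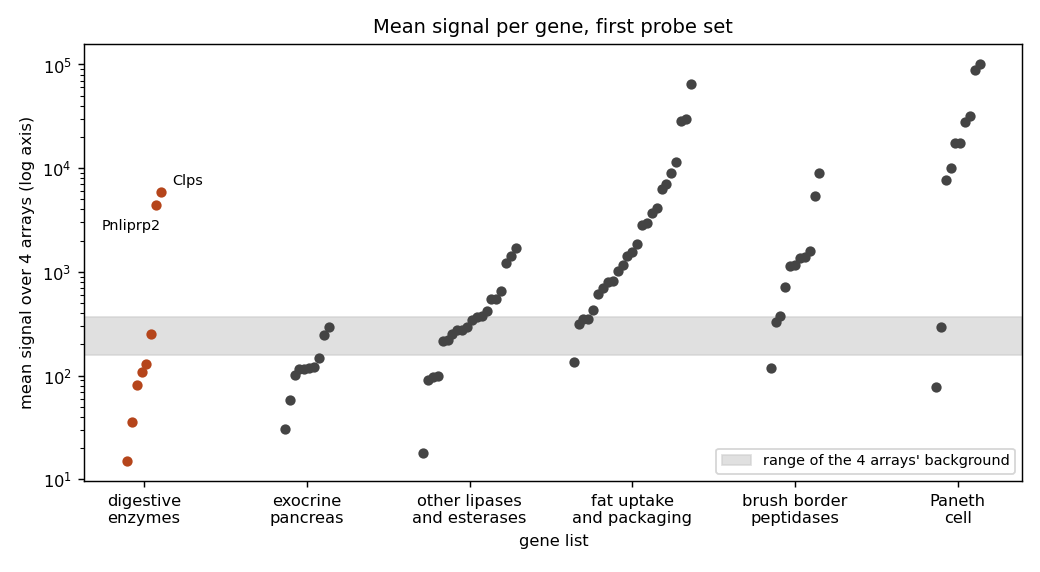
Mean signal over the 4 arrays (log axis) of each gene at its first probe set, for the digestive enzyme genes (orange) and 5 gene lists, 1 point per gene, with a grey band for the range of the 4 backgrounds. Clps and Pnliprp2 stand above the band, whereas all 10 exocrine pancreas genes lie within or below it.

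A wider list of 33 secreted pancreatic enzymes and acinar products had 20 measured and 15 tested genes. None was called, 8 lay above 0 and 7 below, and the median log2 difference was 0.01, beside 0.00 for all 12113 genes tested. Its 3 brightest genes are also products of gut epithelium. Zg16, a lectin of zymogen and goblet cell granules, read 19257 and 43750 in germ-free against 57301 and 145448 in conventionalized cells, which differed by 1.65 ± 1.03 on the log2 scale and did not pass. Spink1, a secreted trypsin inhibitor, read 3629 and 9791 against 3758 and 6345, with overlap. Klk1, tissue kallikrein, read 2842 and 2988 against 2701 and 1536. It differed by -0.51 at this probe set and by 0.16 at another, and neither passed. The probe sets read for Zg16 and Klk1 carry the suffix _x_at, so their signals may hold related transcripts. The list median was 0.70 without conventionalized replicate 1 and -0.07 without conventionalized replicate 2. Leaving out a germ-free array gave 0.14 (replicate 1) and 0.07 (replicate 2).

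Of 7 acinar transcription factors, 6 were measured and 5 tested, with none called and a median of -0.40. Mecom was the one above background on all 4 arrays, at 535 and 605 in germ-free against 778 and 517 in conventionalized cells. Bhlha15, a factor of secretory cells in several tissues, read 627 and 690 against 665 and 312. Nr5a2, a nuclear receptor also active in crypts, read 577 and 412 against 421 and 303. Both were above background on 3 arrays. The median was 0.01 without conventionalized replicate 2, -0.13 without conventionalized replicate 1, -0.19 without germ-free replicate 1 and -0.12 without the signal filter.

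In the other lists of fat and protein digestion 1 gene was called higher and 1 lower. Over all 12113 genes tested, 0.355% were called, with 6059 genes above 0 and 6054 below. Of 16 tested lipases and esterases outside the set, 3 lay above 0 and 13 below, with a median of -0.55. That median was -0.33 without conventionalized replicate 1 and -0.27 without conventionalized replicate 2. Pla2g5, a secreted phospholipase, read 54.6 and 12.4 in germ-free against 526 and 879 in conventionalized cells and was called higher (limma adjusted p = 0.00032). Neither germ-free array was above background and both conventionalized arrays were, so Pla2g5 entered the test through the group where it was high. With the germ-free arrays set at their background, it was at least 2.78-fold higher on the log2(signal + 32) scale. It was not called with testing limited to the brightest 25%, without the variance trend, with the prior held at 4 degrees of freedom or when conventionalized replicate 2 was left out. Of 25 tested genes that take up digested fat and pack it into lipoproteins, 6 lay above 0 and 19 below, with a median of -0.44. With 1 array left out that median ran from -0.15 (germ-free replicate 2) to -0.77 (conventionalized replicate 2), with -0.66 when it was germ-free replicate 1 and -0.26 when it was conventionalized replicate 1. Apoc3, an apolipoprotein, fell by 2.16 on the log2 scale, from 7779 and 12602 to 1270 and 3741 (limma adjusted p = 0.0033). Its call was lost after quantile normalization or median centring, in both other variance models, and when germ-free replicate 2 or conventionalized replicate 1 was left out. Among 11 tested brush border peptidases and related genes, 1 lay above 0, 10 below and none was called, with a median of -0.83. With conventionalized replicate 1 left out that median was -0.36 with 1 gene called, with conventionalized replicate 2 left out it was -1.09 with 2 called, and with germ-free replicate 1 left out it was -1.24. Mep1b, Enpep and Dpp4, its 3 brightest genes, are peptidases of the enterocyte surface. They differed by -0.41 ± 0.55, -0.75 ± 0.48 and -0.29 ± 0.42, and none passed.

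Markers of the cells in the capture give the setting of the Clps signal. Of 10 measured Paneth cell markers 8 were above background on all 4 arrays, as were 9 of 12 enterocyte, 7 of 8 goblet cell, 4 of 9 enteroendocrine and 2 of 6 crypt base stem cell markers. Fibroblast and smooth muscle markers were above it in 4 of 8 genes and blood, plasma and T cell markers in 2 of 6. Summed signals ran from 66975 to 685546 per array for Paneth cell markers and from 73958 to 219592 for enterocyte markers. Total signal over all probe sets read 1.79e+07 and 2.31e+07 in germ-free against 2.50e+07 and 2.79e+07 in conventionalized cells. The brightest marker of both lists rose in the same array order. Lyz1 read 24112 and 51494 against 80185 and 249594, and Fabp2 20981 and 45252 against 51528 and 142558. The probe sets read for Lyz1, Ang4, Defa31 and Defa39 carry the suffix _x_at, so their signals may hold related transcripts. The median log2 difference was 1.96 over the 9 tested Paneth cell markers, with 9 above 0, and -0.73 over the 12 tested enterocyte markers, with 9 below 0. It was 0.53 for 8 goblet cell, -0.43 for 9 enteroendocrine and 0.01 for 6 stem cell markers. For 7 fibroblast and smooth muscle markers it was -0.46. Of the blood, plasma and T cell markers only Igha, Jchain and Ptprc were tested, at 2.44, 0.93 (the median) and -0.32. Hba-a1, Cd3e and Cd3g were below background on each array and not tested. Igha, the immunoglobulin A constant region, was called higher. Of the Paneth cell markers 2 were called higher, Reg3g at 4.90 and Mptx1 at 2.74 (limma adjusted p = 2.9e-18 and 2.5e-05). Of the enterocyte markers 2 were called lower, Cubn at -3.23 and Apoc3 at -2.16 (limma adjusted p = 2.8e-10 and 0.0033). The 3 enterocyte markers above 0 were Fabp2 at 1.47, Rbp2 at 1.23 and Apoa4 at 0.59, none of them called. The summed enterocyte signal was 73958 and 134980 in germ-free against 94165 and 219592 in conventionalized cells. Over all genes tested 0.355% were called. No probe set of the whole table was called without the variance trend or with a prior of 4 degrees of freedom. None of these marker calls held there. The members had 0.56 for Clps, -0.10 for Pnliprp2 and -0.65 for Cela1. Fewer cells of a type and less RNA per cell cannot be told apart in pooled captures. The part of these cells in the signals of Clps, Pnliprp2 and Cela1 was not tested. The germ-free arrays went through fluidics station 1 and the conventionalized ones through station 2, and the effect of the station cannot be told apart from that of the group.

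The genes with the profile most like that of Clps over the 4 arrays were sought among the 4671 other genes above background on all 4. The measure was the Euclidean distance between log2 values centred on the mean of each gene. The nearest were Timm10, a chaperone of mitochondrial import, at 0.09, and Cyb5r4, a reductase, at 0.09. Next came Shmt1, an enzyme of serine and one-carbon metabolism, Cebpd, a transcription factor, and Twf2, an actin-binding protein, each at 0.10. Timm10 read 410 and 451 in germ-free against 777 and 595 in conventionalized cells. Their log2 differences ran from 0.47 to 0.65, and none passed. Likeness over 4 arrays is given as a description.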

How the data were processed

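The authors deposited 1 signal intensity per probe set and array for 45101 probe sets. The deposited values were on a linear scale, with a mean of 250 on each array after trimming 2% from either end. The software behind them is not given in the sources used here. Present and absent calls were not used. The values were used as scaled by the authors and turned into log2(intensity + 32). Probe sets other than the 64 controls, with a mean above 113.9 (the median of all), entered the test, 22491 in all. The test of group was that of limma 3.58.1 (R 4.3.3; lmFit, and eBayes with a variance trend), with Benjamini-Hochberg adjustment over all tested probe sets. The prior degrees of freedom were infinite, so each SE is shared by probe sets of like signal. The fit was also run on simulated data with independent noise for each probe set. That run held no error common to an array, so it cannot judge the shared SE on these arrays.

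Gene names came from the platform annotation, matched by gene identifier to a RefSeq gene table (GRCm38.p6). The named genes were the 9 members, each gene list's called genes or else its 3 brightest, and the 5 genes nearest to Clps. Of the cell type markers the called genes were named, and the others named were chosen after their values were seen. In the exocrine pancreas list, its 3 brightest and the genes above background on any array were named. Any other gene is said to be named after its values were seen. Members and lists were chosen with earlier results of these data known. Arrays differ by 0.83 (germ-free) and 1.05 (conventionalized) in the standard deviation of the log2 difference between duplicates. Their number limits the precision.

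Alternatives were other pseudocounts, filters, normalizations, variance models, blocks, backgrounds and probe set rules, and each array left out. Aliquot numbers 1 and 2 did not pair the arrays.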

Additional observations from a re-analysis of the deposited data

How the results depend on the processing

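No member gene was called under any of the 15 alternatives. The differences of Clps, Cela1, Cpb1, Cel and Cpa1 kept their signs wherever computed. That of Ctrb1 ran from -0.52 to 0.34 and was tested only where the signal filter was dropped. The difference of Pnliprp2 came to 0.084 when its probe sets were averaged on the log2 scale, and ran from -0.55 to 0.35 with 1 array left out. That of Pnliprp1 ran from -0.091 to 0.066 with 1 array left out. The number of probe sets called over the whole table, 75, was 33 after quantile normalization and 22 after median centring. It was 0 without the variance trend or with a prior of 4 degrees of freedom. Leaving out 1 array gave from 41 to 213. Under median centring the split was 3 higher and 19 lower, against 27 and 48. Same-numbered arrays had a correlation of deviations of -0.13. The replicate block gave 30 calls, and the crossed pairing, chosen after seeing the data, gave 228, and neither called a member. Apoc3 lost its call under the replicate block. The crossed pairing called 4 lipases and esterases and 3 brush border peptidases, against 1 and 0. Cela1 also counted as above background with the array median as background, or when 2 arrays sufficed, which made 3 genes. The low signal of Pnliprp1 left the widest interval, from 0.30-fold to 3.28-fold.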
